A study of Mus musculus with 18 samples.

Results

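The transcripts described here are those of 10 genes: *Tyr*, *Tyrp1*, *Dct*, *Pmel*, *Mlana*, *Mitf*, *Rpe65*, *Rdh5*, *Ttr* and *Slc6a13*. They are known from the pigmented cells, the retinal pigment epithelium and the ciliary epithelium around the lens, which need not be their only source. They were picked by gene symbol, with results of these libraries known and partly because their levels were raised in *Cryab*-R120G lenses, and they are 10 of the 40800 genes of the count table. All 10 had at least 1 count in a library and were among the 26547 genes tested. Poly-A RNA from whole lenses of C57BL/6J mice gave 18 libraries, 3 for each of 6 groups, and every library pooled several lenses. In the *Cryaa*-R49C line, lenses were taken at 2 days of age from *Cryaa*-WT mice, from *Cryaa*-R49C-het mice with 1 knock-in allele of the R49C change in αA-crystallin, and from *Cryaa*-R49C-homo mice with 2 such alleles. In the *Cryab*-R120G line, lenses were taken at 14 days of age from *Cryab*-WT mice, and from carriers of the R120G change in αB-crystallin on 1 knock-in allele (*Cryab*-R120G-het) or on 2 (*Cryab*-R120G-homo). Both changes cause cataract, and each line was studied at an early stage of it. Line and age cannot be told apart in these data. The mutant alleles differ from the wild type by a point mutation, so the counts of *Cryaa* and *Cryab* do not check the labels.

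Melanin is made in melanosomes, the organelles of pigment cells, by the enzymes encoded by *Tyr*, *Tyrp1* and *Dct*, on fibrils formed by the product of *Pmel*. *Mitf* encodes the transcription factor that drives these genes in melanocytes and in the retinal pigment epithelium. In the eye, the melanosome genes mark the retinal pigment epithelium, the pigmented layer of the ciliary body, the iris and the melanocytes of the choroid. *Rpe65* and *Rdh5* act in the visual cycle, in which the retinal pigment epithelium restores the chromophore of the photoreceptors. The ciliary epithelium secretes the aqueous humour and holds the fibres that suspend the lens. Lens cells themselves are not pigmented.

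Defining lens markers were present in every library, with *Mip*, the main membrane channel of lens fibres, at 171.5 to 863 CPM (counts brought to a common library size, with TMM scaling) over the 18 libraries, and *Foxe3*, a transcription factor of the lens epithelium, at 1.13 to 4.401 CPM. Library totals ran from 14272174 to 29639719 counts. The 10 transcripts summed to between 13.99 and 66.97 CPM in a library, so they were a small part of the RNA of every library. In pooled bulk tissue, fewer cells of a type and less RNA per cell cannot be told apart. The study's methods describe the libraries of a group as biological replicates made from separate groups of pooled lenses, so p-values measure the spread between pools and not between single mice.

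The promoters are shown first because several of these genes are known targets of *Mitf*, whose own transcript is among the 10. *Mitf* is known to bind the M-box of melanocyte promoters, which was searched as its 7-base core TCATGTG on both strands in the 250 bases before each transcription start of the RefSeq promoter table (GRCm38.p6). The search covered 11 promoters of 7 of the 10 genes. The core was found in 4 of these 11 promoters and in 4 of these 7 genes, against 1068 of all 32851 promoters of the same length, which is 3.25%. The core holds CATGTG, an E-box of the kind CANNTG. Another E-box, CACGTG, was found in 0 of the 11 and in 6.02% of all promoters. The 4 promoters with a match are given here from 5′ to 3′ on the strand of the gene, with the matches in capitals.
Tyr (chr7:87493513-87493762, - strand): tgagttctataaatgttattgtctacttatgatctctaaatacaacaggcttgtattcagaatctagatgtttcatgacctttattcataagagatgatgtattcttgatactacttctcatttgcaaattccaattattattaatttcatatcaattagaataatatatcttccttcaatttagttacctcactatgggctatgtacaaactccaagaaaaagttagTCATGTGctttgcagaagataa
Tyrp1 (chr4:80833963-80834212, + strand): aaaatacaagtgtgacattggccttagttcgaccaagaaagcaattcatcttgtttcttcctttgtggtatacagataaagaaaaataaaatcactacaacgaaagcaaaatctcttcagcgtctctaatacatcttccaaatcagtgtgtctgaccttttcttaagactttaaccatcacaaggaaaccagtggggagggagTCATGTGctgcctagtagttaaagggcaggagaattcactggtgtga
Dct (chr14:118052247-118052496, - strand): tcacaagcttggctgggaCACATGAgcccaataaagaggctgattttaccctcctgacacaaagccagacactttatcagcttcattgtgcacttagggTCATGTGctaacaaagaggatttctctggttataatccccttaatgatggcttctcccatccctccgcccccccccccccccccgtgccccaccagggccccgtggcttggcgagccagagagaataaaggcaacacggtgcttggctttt
Slc6a13 (chr6:121300038-121300287, + strand): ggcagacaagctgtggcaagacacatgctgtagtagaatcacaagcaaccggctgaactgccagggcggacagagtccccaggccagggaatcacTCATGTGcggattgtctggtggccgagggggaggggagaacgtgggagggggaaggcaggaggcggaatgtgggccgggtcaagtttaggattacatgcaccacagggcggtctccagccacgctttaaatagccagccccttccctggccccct
The match began 22 bases before the start of *Tyr*, 47 bases before that of *Tyrp1* and 155 bases before that of *Slc6a13*. *Dct* had a match 151 bases before its start and a match on the reverse strand 232 bases before it. For *Slc6a13* only 1 of 3 listed promoters had a match, and the promoters of *Rpe65* and *Rdh5* and the 3 promoters of *Mitf* had none. A match is a stretch of letters in this window and not a measured site.

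The melanin enzymes were low in every library. *Tyr*, which encodes the enzyme of the first and rate-limiting step (chr7:87424771-87493512, - strand), stood at 0.472, 0.514 and 0.707 CPM in *Cryaa*-WT, at 0.279, 0.679 and 0.616 CPM in *Cryaa*-R49C-het, and at 0.262, 0.0638 and 0.153 CPM in *Cryaa*-R49C-homo, always in the order of replicates 1 to 3. At 14 days its counts were 0, 0 and 0 in *Cryab*-WT, 6, 5 and 1 in het, and 4, 5 and 2 in homo. All *Cryaa*-R49C-homo libraries therefore lay below all *Cryaa*-WT and *Cryaa*-R49C-het libraries, and the transcript was not detected in the 14-day WT lenses. With 3 counts over the group as the floor, *Tyr* was at least 3.73-fold higher in *Cryab*-R120G-het and at least 2.96-fold higher in *Cryab*-R120G-homo than in *Cryab*-WT. These bounds and the counting intervals given for other genes cover counting error only.

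*Tyrp1*, a further melanosomal enzyme (chr4:80834123-80851719, + strand), stood at 2.57, 2.60 and 4.31 CPM in *Cryaa*-WT, at 2.54, 3.65 and 3.69 CPM in *Cryaa*-R49C-het, and at 2.97, 0.446 and 0.535 CPM in *Cryaa*-R49C-homo. Replicates 2 and 3 of *Cryaa*-R49C-homo were thus the lowest of the 9 libraries of that line, while replicate 1 lay within the range of the WT libraries. Among *Cryab* lenses *Tyrp1* stood at 1.05, 1.36 and 0.876 CPM in WT, at 3.03, 2.31 and 1.37 CPM in het, and at 1.15, 1.74 and 1.06 CPM in homo, where WT and homo overlapped.

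*Dct*, the dopachrome tautomerase gene (chr14:118012790-118052244, - strand), stood at 3.95, 5.65 and 7.84 CPM in *Cryaa*-WT, at 4.80, 3.04 and 4.21 CPM in *Cryaa*-R49C-het, and at 4.25, 3.92 and 3.02 CPM in *Cryaa*-R49C-homo. Lenses of the *Cryab* line had it at 0.633, 1.49 and 1.46 CPM in WT, at 9.97, 5.07 and 2.33 CPM in het, and at 4.92, 4.37 and 2.81 CPM in homo. The groups of the *Cryaa* line overlapped for *Dct*, whereas every mutant library of the *Cryab* line lay above every WT library of that line.

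*Pmel*, which encodes the protein of the melanosome fibrils (chr10:128704195-128720238, + strand), had the highest level per kilobase of exon among the melanosome genes of *Cryaa*-WT, 5.65 CPM per kb, against 1.4 for *Mlana*, 1.12 for *Tyrp1*, 0.986 for *Dct* and 0.0794 for *Tyr*. It stood at 9.14, 13.2 and 16.5 CPM in *Cryaa*-WT, at 8.91, 9.37 and 9.83 CPM in *Cryaa*-R49C-het, and at 6.01, 2.14 and 1.68 CPM in *Cryaa*-R49C-homo. The *Cryab* lenses had it at 1.05, 1.30 and 1.10 CPM in WT, at 8.10, 5.07 and 2.27 CPM in het, and at 2.87, 6.06 and 2.28 CPM in homo. The homo group lay lowest in one line and the WT group lowest in the other, in both cases without overlap with the other groups. Of its 2292 exon bases, 34 are shared with *Cdk2* and 105 with *Dgka* on the opposite strand.

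*Mlana*, whose product takes part in the maturation of melanosomes (chr19:29697824-29708634, + strand), stood at 1.20, 1.54 and 1.70 CPM in *Cryaa*-WT, at 0.726, 0.937 and 0.847 CPM in *Cryaa*-R49C-het, and at 0.689, 0.191 and 0.0765 CPM in *Cryaa*-R49C-homo, so that the 3 groups did not overlap with TMM scaling. With library size alone the het libraries overlapped both the WT and the homo libraries. Its counts at 14 days were 1, 1 and 3 in WT, 24, 18 and 1 in het, and 7, 10 and 6 in homo. The ratio of summed counts per scaled library size, with its exact 95% counting interval, was 8.02 (3.18 to 25.93) for *Cryab*-R120G-het and 3.71 (1.38 to 12.5) for *Cryab*-R120G-homo against *Cryab*-WT. Het replicate 3, at 0.0687 CPM, was within the range of WT.

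*Mitf* (chr6:97807052-98021349, + strand) had overlapping groups in the *Cryab* line. It stood at 8.01, 8.18 and 8.47 CPM in WT, at 9.97, 8.47 and 6.45 CPM in het, and at 5.94, 8.53 and 7.66 CPM in homo. In the *Cryaa* line it stood at 6.44, 6.10 and 7.17 CPM in WT, at 4.97, 7.18 and 4.82 CPM in het, and at 3.83, 3.06 and 3.29 CPM in homo. The homo libraries of that line were all below the other 6, and they lay close together.

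Of the visual cycle genes, *Rpe65* was at the floor in the 2-day lenses and *Rdh5* was not. *Rpe65*, the retinoid isomerase gene of the retinal pigment epithelium (chr3:159599175-159625321, + strand), had counts of 0, 0 and 2 in *Cryaa*-WT, 0, 0 and 0 in *Cryaa*-R49C-het, and 0, 1 and 0 in *Cryaa*-R49C-homo, so no fold change is given for that line. At 14 days it had counts of 2, 0 and 6 in WT, 24, 11 and 15 in het, and 16, 25 and 8 in homo, which is 0.216 ± 0.219, 1.29 ± 0.751 and 0.982 ± 0.356 CPM (SD, n = 3). All 6 mutant libraries of the *Cryab* line lay above its WT libraries. *Rdh5*, an 11-cis retinol dehydrogenase gene (chr10:128913593-128922888, - strand), stood at 0.958 ± 0.520, 0.740 ± 0.305 and 0.877 ± 0.146 CPM in the WT, het and homo groups at 2 days and at 0.514 ± 0.299, 1.20 ± 0.687 and 1.30 ± 0.665 CPM in those at 14 days (SD, n = 3). The groups of *Rdh5* overlapped in both lines. Of its exon bases, 25.6% are shared with *Bloc1s1* on the same strand, where a read fits both genes.

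*Ttr* encodes transthyretin, the carrier of thyroxine and of the retinol-binding protein, which in the eye is made by the pigment epithelia. It stood at 1.24, 1.99 and 4.24 CPM in *Cryaa*-WT, at 1.26, 1.002 and 2.72 CPM in *Cryaa*-R49C-het, and at 1.95, 3.99 and 3.48 CPM in *Cryaa*-R49C-homo. The lenses at 14 days had it at 2.85, 2.73 and 3.43 CPM in WT, at 25.1, 9.56 and 9.68 CPM in het, and at 14.8, 11.6 and 7.82 CPM in homo. In the order of the group means, from *Cryaa*-R49C-het at 1.66 ± 0.927 CPM through *Cryaa*-WT at 2.49 ± 1.56, *Cryab*-WT at 3.00 ± 0.377 and *Cryaa*-R49C-homo at 3.14 ± 1.06 to *Cryab*-R120G-homo at 11.4 ± 3.50 and *Cryab*-R120G-het at 14.8 ± 8.95 (SD, n = 3), only the step between *Cryaa*-R49C-homo and *Cryab*-R120G-homo separated neighbours without overlap. Per kilobase of exon, *Ttr* was the highest of the 10 transcripts in every group of the *Cryab* line, at 2.53, 12.5 and 9.62 CPM per kb in WT, het and homo. It was also the highest in *Cryaa*-R49C-homo, at 2.65 CPM per kb, while *Pmel* was the highest in *Cryaa*-WT and *Cryaa*-R49C-het.

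*Slc6a13* encodes GAT2, a transporter of GABA and taurine (chr6:121300227-121337733, + strand). It stood at 2.62, 2.06 and 2.23 CPM in *Cryaa*-WT, at 2.21, 2.84 and 3.31 CPM in *Cryaa*-R49C-het, and at 1.19, 0.319 and 0.765 CPM in *Cryaa*-R49C-homo. At 14 days it stood at 0.844, 0.0649 and 0.803 CPM in WT, at 4.01, 3.27 and 2.61 CPM in het, and at 3.77, 3.53 and 3.34 CPM in homo. The homo lenses of the *Cryaa* line and the WT lenses of the *Cryab* line were the low groups, and each was apart from the other groups of its line.

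**Figure D1:**
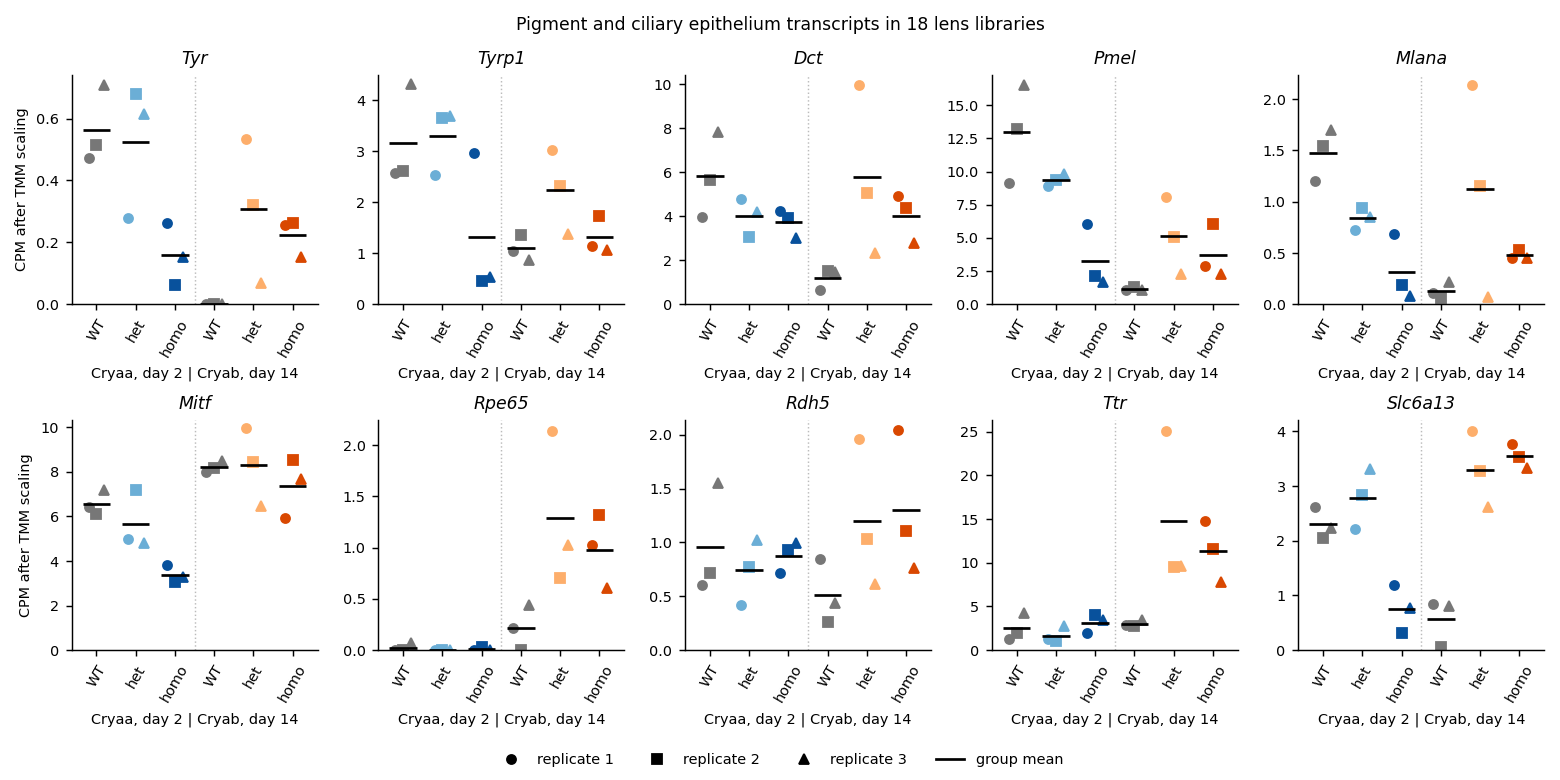
Level of each of the 10 transcripts (CPM after TMM scaling, linear axes from 0) in the 18 libraries, by genotype, with the *Cryaa* line at 2 days left of the dotted line and the *Cryab* line at 14 days right of it. Symbols are replicates and bars are group means. *Pmel* has means of 12.95 CPM in *Cryaa*-WT and 3.28 CPM in *Cryaa*-R49C-homo, and *Ttr* stands at 3.00 CPM in *Cryab*-WT and at 14.8 and 11.4 CPM in the het and homo lenses of that line.

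The *Cryaa* line was not used to pick these genes by the rule given, so its comparisons were tested, with edgeR's quasi-likelihood test over all 26547 genes and a Benjamini-Hochberg false discovery rate (FDR) of at most 0.05. In *Cryaa*-R49C-homo against *Cryaa*-WT, 5 of the 10 transcripts passed, all lower in homo, while 2.81% of all genes tested were lower and 2.83% higher. They were *Pmel*, *Mlana*, *Slc6a13*, *Tyrp1* and *Mitf*. The same number, 5 of the 9 genes with a mean count of at least 10, had all homo libraries below all WT libraries, against 11.5% of all genes that reached this count, and these were *Slc6a13*, *Tyr*, *Pmel*, *Mlana* and *Mitf*. These separations were found with TMM scaling. With library size alone, homo and WT libraries overlapped for *Slc6a13*, *Pmel* and *Mitf*, and stayed apart for *Tyr* and *Mlana*. The median log2 fold change was -1.22 over the 9 transcripts left without *Rpe65*, which was at the floor, against 0 over all genes tested. Where libraries were scaled by their totals, the median over all genes tested was 0.25 and that of the 10 transcripts, with the fitted value of *Rpe65*, -0.81 against -1.08 with TMM, so the changes are relative to the median gene.

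Because genes with very few counts made the prior degrees of freedom of this fit infinite, each call is given with its FDR among the 13938 genes kept by edgeR's filterByExpr function, where the spread of single genes counts for more. *Pmel* fell by 1.96 on the log2 scale in homo lenses (SE 0.285, FDR 1.24e-09, and 0.00692 with filterByExpr). *Mlana* fell by 2.11 (SE 0.515, FDR 0.0018, and 0.0329 with filterByExpr). *Slc6a13* fell by 1.57 (SE 0.371, FDR 0.00112, and 0.0151 with filterByExpr). With TMM scaling, these 3 genes were lower in all homo libraries than in any WT library. With library size alone, *Pmel* stood at 12.61 CPM in homo replicate 1 and at 11.97 CPM in WT replicate 1. *Slc6a13* then stood at 2.492 CPM in homo replicate 1 and at 2.435 CPM in WT replicate 2. *Mitf* fell by 0.95 (SE 0.281, FDR 0.0175, and 0.00575 with filterByExpr). *Tyrp1* fell by 1.22 (SE 0.355, FDR 0.0154), but its FDR was 0.097 with filterByExpr and 0.0821 with DESeq2, and its groups overlapped. *Tyr*, at -1.75 (SE 0.698), did not pass at an FDR of 0.139, although its groups were apart, and *Dct*, at -0.64 (SE 0.296), had an FDR of 0.246. *Ttr* at 0.32 (SE 0.291, FDR 0.689) and *Rdh5* at -0.14 (SE 0.464, FDR 0.986) did not pass either. *Rpe65* was at the floor.

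Single libraries decided several of these calls. Without *Cryaa*-R49C-homo replicate 2, the FDR of *Slc6a13* became 0.0664, that of *Tyrp1* 0.325 and that of *Mitf* 0.0909, and 2 of the 10 transcripts passed. Without *Cryaa*-R49C-homo replicate 3, *Tyrp1* stood at 0.243, *Mlana* at 0.0503 and *Mitf* at 0.0565, and again 2 passed. Without *Cryaa*-WT replicate 3, *Tyrp1* stood at 0.224 and *Mitf* at 0.0879, and 3 passed, while without *Cryaa*-WT replicate 1 only *Mitf* was lost, at 0.0582. Without *Cryaa*-R49C-homo replicate 1, *Tyr* was added at an FDR of 0.0449 and 6 passed. The share of all genes tested that passed moved too, to 3.74% without homo replicate 2, 4.79% without homo replicate 3, 4.12% without WT replicate 3, 3.72% without WT replicate 1 and 11.9% without homo replicate 1. Only *Pmel* kept its call under each of these settings and under library size alone, where *Slc6a13* (0.0757), *Tyrp1* (0.222) and *Mitf* (0.351) did not pass.

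In *Cryaa*-R49C-het against *Cryaa*-WT, 0 of the 10 transcripts passed with edgeR and 0 with DESeq2, and 0 had an unadjusted p under 0.05. Of all genes tested, 0.064% passed. The median log2 fold change was -0.38 over the 9 transcripts left without *Rpe65*. *Mlana* stood at -0.82 on this scale (SE 0.481, FDR 0.887), and *Dct* at -0.53 (SE 0.294), *Ttr* at -0.58 (SE 0.297) and *Pmel* at -0.47 (SE 0.273) had the same FDR of 0.887. The het and WT libraries of *Mlana* did not overlap with TMM scaling. With library size alone they did, at 1.675 CPM in het replicate 3 and 1.574 CPM in WT replicate 1.

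In *Cryaa*-R49C-homo against *Cryaa*-R49C-het, 4 of the 10 transcripts passed, 3 lower and 1 higher, while 2.46% of all genes tested were lower and 2.89% higher. *Slc6a13* fell by 1.85 on the log2 scale (SE 0.368, FDR 4.62e-05, and 0.00665 with filterByExpr). *Pmel* fell by 1.49 (SE 0.282, FDR 1.31e-05, and 0.0375 with filterByExpr). Both kept their call without any single library of these groups. *Tyrp1* fell by 1.27 (SE 0.353, FDR 0.00989, and 0.093 with filterByExpr), and its FDR was 0.0591 without het replicate 2, 0.0811 without het replicate 3, 0.342 without homo replicate 2 and 0.238 without homo replicate 3. *Ttr* rose by 0.90 (SE 0.294, FDR 0.0442), but its groups overlapped, its FDR was 0.272 with filterByExpr, and it was 0.301 without het replicate 1, 0.398 without het replicate 2, 0.229 without homo replicate 1, 0.393 without homo replicate 2 and 0.167 without homo replicate 3. *Mitf*, at -0.73 (SE 0.280), did not pass at 0.114 but stood at 0.0373 with filterByExpr and at 0.012 without homo replicate 1. Without that library *Tyr* (0.0475) and *Mlana* (0.00121) passed too, and 15.6% of all genes did. The homo libraries serve in both of the comparisons that have calls, so these are not independent of each other.

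**Figure D2:**
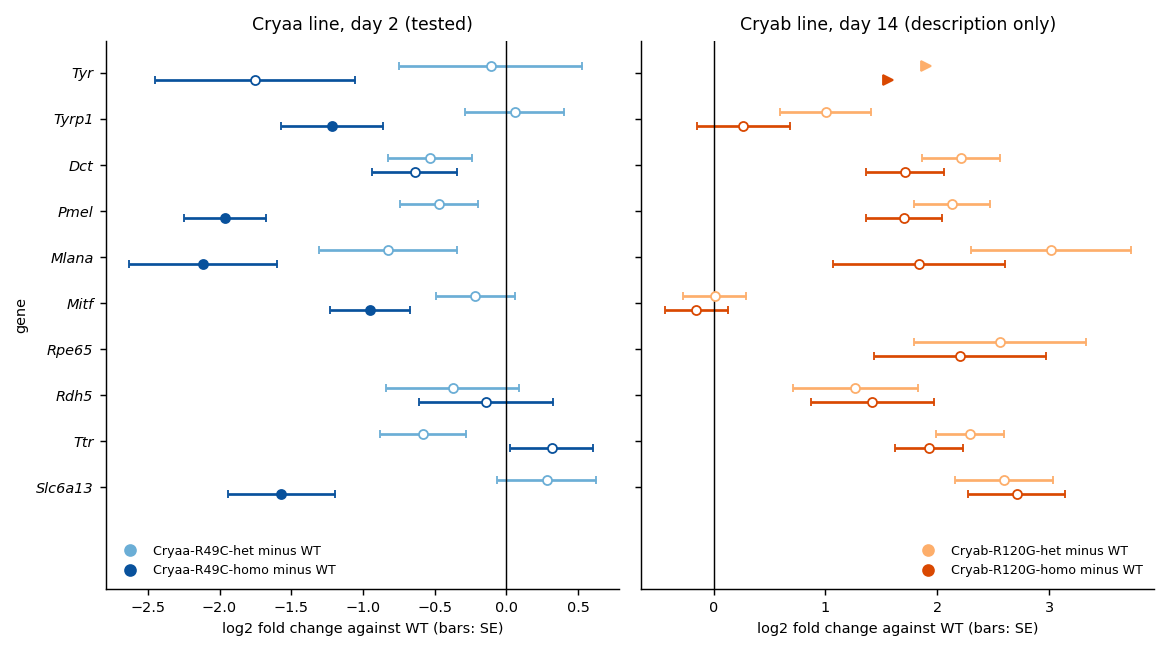
Fold changes of the 10 transcripts against the WT lenses of their line (log2 scale, bars are SE of the fit), for het and homo lenses. Filled circles passed an FDR of 0.05 in the *Cryaa* line, open circles did not pass or, in the *Cryab* line, were not tested, and arrowheads are the lower bounds of *Tyr*, 1.90 and 1.56. *Rpe65* is left out in the *Cryaa* line, where it was at the floor. The called values run from -0.95 for *Mitf* to -2.11 for *Mlana*.

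In the *Cryab* line the direction was part of the choice of these genes, so their fold changes are a description with no test. In *Cryab*-R120G-het against *Cryab*-WT, the log2 fold changes of 9 of the 10 were above 0 in each setting tried. That of *Mitf* was 0.01 with TMM, -0.004 with DESeq2 size factors, -0.009 with filterByExpr and -0.008 without *Cryab*-WT replicate 1. The 10 had a median of 2.25, or 2.17 with *Tyr* at its lower bound, against 0 over all genes. In *Cryab*-R120G-homo against *Cryab*-WT, 9 of the 10 were above 0, with a median of 1.77, or 1.71 with *Tyr* at its lower bound. Among the 7 transcripts with a mean count of at least 10, 5 had all het libraries above all WT libraries, where the share over all genes with such a count was 4.91%, and 4 had all homo libraries above them, where it was 3.94%. These counts follow from the choice of the genes. Both comparisons share the 3 *Cryab*-WT libraries.

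*Slc6a13*, with only 1 to 11 counts in the WT libraries, stood 2.60 (SE 0.441) above WT in het and 2.71 (SE 0.437) in homo lenses on the log2 scale. *Ttr* was 2.29 (SE 0.304) and 1.93 (SE 0.302) above WT on the same scale. *Dct* stood 2.21 (SE 0.348) and 1.71 (SE 0.349) above WT, and *Pmel* 2.13 (SE 0.339) and 1.70 (SE 0.339). *Mitf* stood apart from them, at 0.01 (SE 0.283) in het and -0.16 (SE 0.283) in homo lenses. Its sign in het lenses turned with the setting, from -0.14 without het replicate 1 to 0.21 with library size alone, and in homo lenses it turned to 0.19 with library size alone. That scaling also moved the median over all genes tested, to 0.065 in het and 0.245 in homo lenses. *Tyrp1* stood at 1.001 (SE 0.409) in het and 0.27 (SE 0.419) in homo lenses, and *Rdh5* at 1.27 (SE 0.560) and 1.42 (SE 0.549).

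Het and homo lenses of the *Cryab* line overlapped for all 10 transcripts. The median log2 fold change of homo against het was -0.37, and it was 0.16 without het replicate 1. That library had the highest level of 9 of the 10 transcripts in the line, and without it the median of het against WT was 1.67. Het replicate 1 also held the highest summed level of the erythrocyte genes in the line, 450.1 CPM.

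The WT lenses of the 2 lines differed in the melanosome genes, which is again a description. *Pmel* was 11.3-fold higher in *Cryaa*-WT at 2 days than in *Cryab*-WT at 14 days, at 12.95 ± 3.71 against 1.15 ± 0.131 CPM (SD, n = 3). *Dct* was 4.86-fold and *Tyrp1* 2.88-fold higher, and the ratio of summed counts of *Mlana* was 11.55 (95% counting interval 4.82 to 36.2). *Tyr* was at least 7.32-fold higher. *Ttr*, at 2.49 and 3.00 CPM, overlapped, and *Mitf* was lower at 2 days with TMM, at 6.57 ± 0.550 against 8.22 ± 0.231 CPM, but higher with library size alone, at 7.22 to 14.2 against 4.17 to 4.58 CPM. With library size alone the fitted median of all genes tested between these groups was 1.52 on the log2 scale. The median difference of log2 CPM over the 10 transcripts was 3.03 there and 1.84 with TMM. The TMM factors were 1.19 to 2.10 in one line and 0.496 to 0.793 in the other.

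Summed over *Tyr*, *Tyrp1*, *Dct*, *Pmel* and *Mlana*, the melanosome genes reached 17.3 to 31.1 CPM in *Cryaa*-WT, 17.3 to 19.2 CPM in *Cryaa*-R49C-het and 5.47 to 14.2 CPM in *Cryaa*-R49C-homo. They reached 2.85 to 4.22 CPM in *Cryab*-WT, 6.11 to 23.8 CPM in *Cryab*-R120G-het and 6.75 to 12.95 CPM in *Cryab*-R120G-homo. The 3 highest sums were those of *Cryaa*-WT replicates 3 and 2 and of *Cryab*-R120G-het replicate 1. *Cryaa*-WT replicate 3 had the highest level of 8 of the 10 transcripts in its line, and its photoreceptor genes summed to 86.8 CPM, against 24.0 and 20.0 CPM in replicates 1 and 2.

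A wider list of 25 melanosome and pigment cell genes did not move as one in the *Cryaa* line. In *Cryaa*-R49C-homo against *Cryaa*-WT, 3 passed as lower and 1 as higher, with a median log2 fold change of -0.44 against 0 over all genes. *Ednrb*, the endothelin receptor that melanocyte precursors need, was lower, with 10.3 CPM in homo against 49.6 CPM in WT lenses (log2 fold change -2.26, SE 0.265, FDR 7.84e-15, and 7.46e-06 with filterByExpr). *Myo5a*, the motor that carries melanosomes along actin, was higher, with 43.1 against 14.7 CPM (log2 fold change 1.55, SE 0.262, FDR 4.1e-07, and 2.36e-05 with filterByExpr). Both genes are also used by cells without pigment. *Rab38*, a small GTPase of melanosome transport, stood at 5.79, 4.18 and 7.84 CPM in WT and at 5.78, 0.0319 and 0.153 CPM in homo lenses (FDR 0.000108, but 0.34 with filterByExpr). Like *Tyrp1*, it was low in homo replicates 2 and 3 and within the WT range or close to it in replicate 1.

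Of 24 further genes of the retinal pigment epithelium, 4 passed as lower and 0 as higher in *Cryaa*-R49C-homo against *Cryaa*-WT, and 1 passed as lower with filterByExpr; 11 of the 24 had an unadjusted p under 0.05, as did 15.4% of all genes tested. *Rdh10*, which oxidises retinol, was lower in all homo libraries, at 2.498 against 6.76 CPM (log2 fold change -1.42, SE 0.303, FDR 0.000184, and 0.0432 with filterByExpr). *Ptgds*, the prostaglandin D synthase gene, stood at 18.3, 1.82 and 3.21 CPM in homo and at 16.3 to 34.1 CPM in WT lenses (FDR 3.24e-08, and 0.0804 with filterByExpr). *Kcnj13*, a potassium channel gene of the apical membrane of the retinal pigment epithelium, stood at 2.995, 0.0638 and 0.0382 CPM in homo and at 1.37 to 3.60 CPM in WT lenses (FDR 0.0468, and 0.447 with filterByExpr). Again replicate 1 lay with the WT libraries and replicates 2 and 3 below them.

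Of 26 genes of the ciliary epithelium and its fibres, 8 passed as lower and 1 as higher in the same comparison, and 3 as lower and 0 as higher with filterByExpr. Of all genes tested 2.81% were lower and 2.83% higher, and of those kept by filterByExpr 4.91% and 4.87%, which is the background for the other lists in this comparison too. The median log2 fold change of the ciliary genes was -0.49. *Zic2*, a transcription factor gene, was lower in all homo libraries, at 0.568 against 2.97 CPM (log2 fold change -2.34, SE 0.442, FDR 1.22e-05, and 0.00893 with filterByExpr). *Gja1*, which encodes the gap junction protein connexin 43 and is also made by the lens epithelium, was lower too, at 7.17 against 27.96 CPM (log2 fold change -1.95, SE 0.266, FDR 5.48e-11, and 4.77e-05 with filterByExpr). *Otx1*, which is needed for the ciliary body to form, stood at 5.04, 0 and 0.115 CPM in homo and at 4.08 to 7.67 CPM in WT lenses (FDR 2.07e-05, but 0.345 with filterByExpr). *Mfap2*, a gene of the microfibrils of the lens suspension, stood at 97.4, 21.6 and 25.6 CPM in homo and at 73.2 to 89.7 CPM in WT lenses and did not pass at an FDR of 0.0688.

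Of 7 transporter genes of the family of *Slc6a13*, only *Slc6a11*, a GABA transporter gene, passed in *Cryaa*-R49C-homo against *Cryaa*-WT, with 1.097 CPM in homo against 2.98 CPM in WT lenses (log2 fold change -1.46, SE 0.353, FDR 0.0015, and 0.0144 with filterByExpr). *Slc6a6*, the taurine transporter gene, stood at 51.25, 26.7 and 24.7 CPM in homo and at 20.5 to 34.6 CPM in WT lenses. In the *Cryab* line the medians of these 7 genes were 0.69 in het and 1.56 in homo on the log2 scale, beside 2.60 and 2.71 for *Slc6a13* itself, and the medians of the 7 genes were 2.34 and 2.499 without *Cryab*-WT replicate 1. In *Cryaa*-R49C-het against *Cryaa*-WT, no gene of these 4 lists passed, and the numbers with an unadjusted p under 0.05 were 0 of the melanosome genes, 2 of the retinal pigment epithelium genes, 5 of the ciliary genes and 0 of the transporter genes, where the share of all genes tested was 4.14%.

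**Figure D3:**
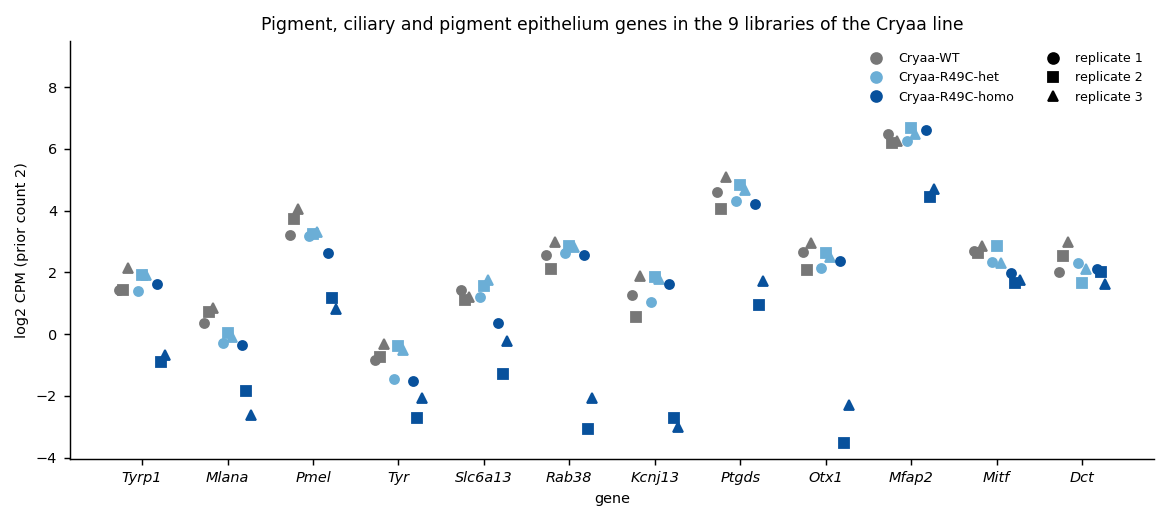
Levels of 12 genes (log2 CPM with a prior count of 2) in the 9 libraries of the *Cryaa* line, coloured by genotype, with a symbol for each replicate. In homo replicates 2 and 3, *Tyrp1*, *Rab38*, *Kcnj13*, *Ptgds*, *Otx1* and *Mfap2* lie below all other libraries of the line, whereas homo replicate 1 lies among the WT and het libraries for these genes. *Dct* shows no such split, and *Mitf* lies at 3.83, 3.06 and 3.29 CPM in the homo libraries.

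*Cryaa*-R49C-homo replicate 1 stood apart in other respects. *Cryaa* itself stood at 100300 CPM in that library and at 38810 and 31560 CPM in replicates 2 and 3, beside 70570 to 104800 CPM in WT. The vessel and mesenchyme genes summed to 72.7 CPM in replicate 1 and to 207.1 and 170.7 CPM in the other two, with 69.5 to 94.6 CPM in WT and 61.7 to 72.9 CPM in het lenses. *Cdh5*, a gene of the vessel wall, stood at 2.02, 16.7 and 13.2 CPM there. The macrophage and microglia genes summed to 31.8, 56.2 and 57.8 CPM in the homo libraries against 12.3 to 27.8 CPM in WT, and 8 of their 14 genes passed as higher (2 of 14 with filterByExpr), with *C1qa* at 5.75 against 1.95 CPM. Of 18 photoreceptor genes 1 passed as lower (0 with filterByExpr), and their sum was 30.0 to 48.6 CPM in homo and 20.0 to 86.8 CPM in WT lenses. Of 20 inner retina and glia genes 1 passed as lower (0 with filterByExpr) and 19 had a fold change below 0, with a median of -0.67. Of 9 erythrocyte genes 4 passed as higher (0 with filterByExpr), with a median of 1.05. Of 13 lens fibre genes 5 passed as lower (7 with filterByExpr), with a median of -0.85, and their sum had a mean of 73700 CPM in homo and 124600 CPM in WT lenses. The part of these markers in the lower pigment and ciliary transcripts of homo lenses was not tested.

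In the *Cryab* line, RNA of the retina was present in every library and varied widely within groups. The 18 photoreceptor genes summed to 1019, 30.7 and 105.5 CPM in WT, to 793, 379 and 126.0 CPM in het, and to 1527, 751 and 275.2 CPM in homo lenses. All 18 were above WT in the mean of homo lenses, though the groups overlapped for each of them. *Cryab*-WT replicate 1 held 1019 CPM of photoreceptor RNA and the lowest sum of the melanosome genes of the line, 2.85 CPM. The inner retina and glia genes summed to 10.8 to 70.4 CPM in WT, 24.7 to 80.7 CPM in het and 38.5 to 149.2 CPM in homo lenses. Without *Cryab*-WT replicate 1, the median log2 fold change of the 10 transcripts was 2.17 in het and 1.82 in homo lenses. In a comparison added after the data were seen, the medians without that library were 2.76 and 3.57 for the photoreceptor genes, 2.72 and 3.70 for the inner retina and glia genes and 3.62 and 2.28 for the erythrocyte genes. That library had the highest WT sums of these lists, so higher medians without it follow from leaving it out. No conclusion is drawn from them.

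Blood and other cells varied in the same libraries. The erythrocyte genes, of which 9 of the 12 listed were in the table, summed to 16.1 to 141.3 CPM in *Cryab*-WT, 133.4 to 450.1 CPM in *Cryab*-R120G-het and 50.8 to 173.2 CPM in *Cryab*-R120G-homo, and 8 of the 9 were above WT in both mutant groups. Macrophage and microglia genes summed to 1.30 to 3.06 CPM in WT and 2.68 to 8.75 CPM in mutant lenses, and *Csf1r*, a defining gene, was at 0 in *Cryab*-WT replicates 2 and 3. *C1qa*, the other defining gene, had means of 0.300 CPM in WT, 0.269 CPM in het and 0.414 CPM in homo lenses. The whole list had 20 to 137 counts in a library of this line, so its medians rest on few counts. Vessel and mesenchyme genes summed to 162.3 to 200.4 CPM in WT and to 159.0 to 219.2 CPM in mutant lenses, a sum made up mostly of *Acta2* (116.1 to 189.4 CPM). Of the 18 genes 14 were above WT in het and 13 in homo lenses, with median log2 fold changes of 0.78 and 0.57, or 0.51 and 0.69 without *Cryab*-WT replicate 1. With no minimum count, 6 of the 18 had all het libraries above all WT libraries. The share was 4.91% over all genes with a mean count of at least 10. By the same rule without a minimum, it was 7 of 24 retinal pigment epithelium, 5 of 9 erythrocyte, 1 of 25 wider melanosome and 1 of 26 ciliary genes. *Col1a1*, a defining gene, stood at 0.211 to 0.844 CPM in WT, 1.44 to 3.74 CPM in het and 1.21 to 1.59 CPM in homo lenses. *Pecam1*, the other defining gene, had its highest mean in WT, at 1.86 CPM against 0.406 CPM in het and 0.799 CPM in homo lenses. Its WT replicate 1 stood at 4.85 CPM, and its groups overlapped. Beside the medians of 2.25 and 1.77 of the 10 transcripts, those of other lists in het and homo lenses, with all libraries, were 1.14 and 1.85 for the inner retina and glia genes, with 19 of 20 above WT in homo, 1.38 and 1.75 for the macrophage and microglia genes, 2.25 and 1.08 for the erythrocyte genes, and 0.21 and 1.17 for the photoreceptor genes. The part of these markers in the higher pigment and visual cycle transcripts of the *Cryab*-R120G lenses was not tested.

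**Figure D4:**
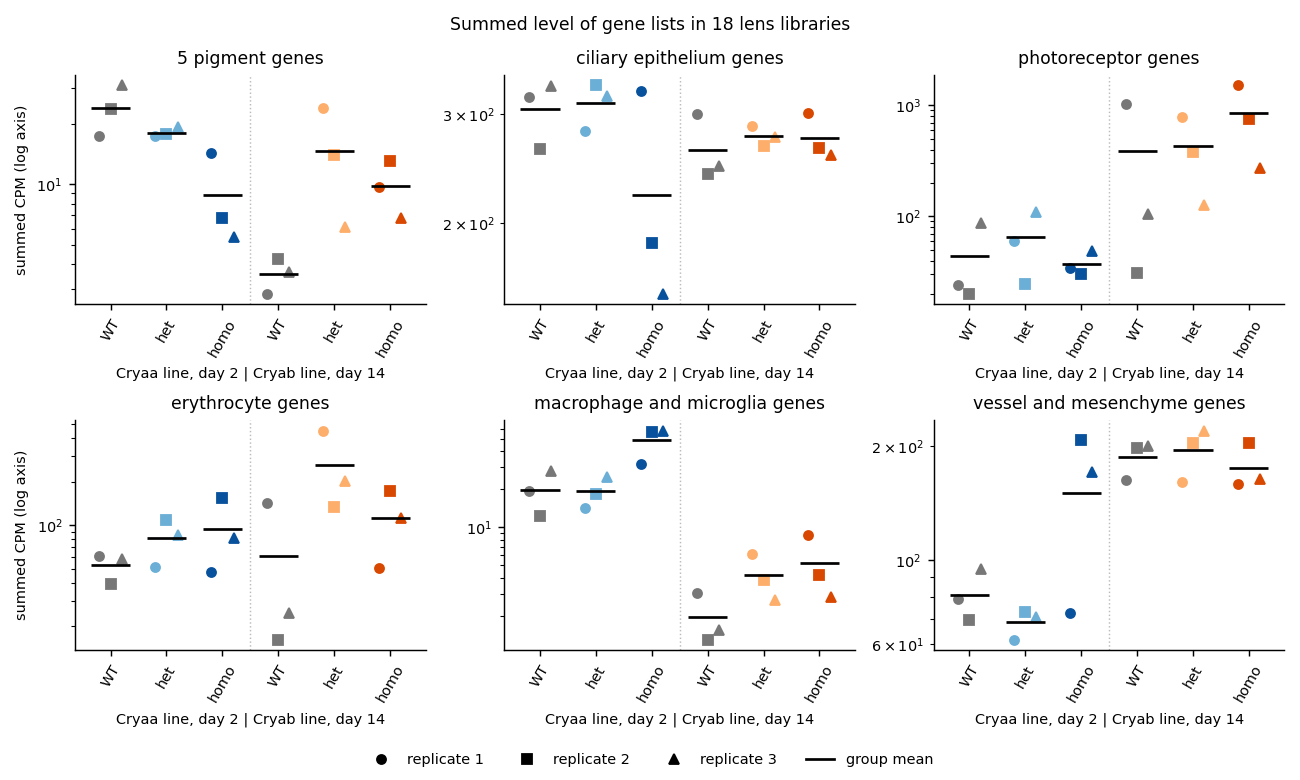
Summed CPM of gene lists (log axes) in the 18 libraries, by genotype, with a symbol for each replicate and a bar for the group mean; the first panel sums *Tyr*, *Tyrp1*, *Dct*, *Pmel* and *Mlana*. In the *Cryab* line the photoreceptor genes range from 30.7 to 1019 CPM within WT alone, while the melanosome genes of WT stay between 2.85 and 4.22 CPM. In the *Cryaa* line, the ciliary genes of homo replicates 2 and 3, at 185.5 and 153.6 CPM, lie below the other libraries of the line, the next of which is at 263.8 CPM.

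The retinal pigment epithelium list gave 17 of 24 genes above WT in *Cryab*-R120G-het and 15 of 24 in *Cryab*-R120G-homo, with median log2 fold changes of 0.53 and 0.78. *Rgr*, a retinal opsin of the pigment epithelium, stood at 0.422, 0.584 and 0.657 CPM in WT, at 8.37, 4.43 and 2.33 CPM in het, and at 6.07, 4.53 and 2.65 CPM in homo lenses, so that mutant and WT libraries did not overlap. *Kcnj13* stood at 0.195 to 0.316 CPM in WT and at 0.790 to 2.17 CPM in mutant lenses, again without overlap. Each WT library had only 3 counts of it, which is at the floor. Of the most abundant genes of that list, *Ezr* ranged from 70.96 to 96.1 CPM and *Trpm3* from 28.5 to 49.4 CPM over the 9 libraries, with WT and mutant groups overlapping. *Ptgds* stood at 34.3 to 41.2 CPM in WT, at 49.7 to 63.5 CPM in het and at 32.2 to 59.7 CPM in homo lenses, so that het and WT did not overlap. For the ciliary list the medians were 0.25 and 0.63, and 0.72 and 1.16 without *Cryab*-WT replicate 1, with *Atp1b3* at 68.15 to 96.9 CPM, *Mfap2* at 44.2 to 83.1 CPM and *Tgfb2* at 28.0 to 34.9 CPM over these libraries. For the wider melanosome list they were 0.25 and 0.14, and 0.24 and 0.26 without that library, and *Ap3b1* (15.8 to 25.2 CPM), *Dtnbp1* (17.5 to 24.0 CPM) and *Ednrb* (13.8 to 21.2 CPM) had overlapping WT and mutant groups.

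The 10 transcripts also differed in how they varied across libraries, which is given as a description that includes the group differences. Over the 10 pairs of *Tyr*, *Tyrp1*, *Dct*, *Pmel* and *Mlana*, Pearson's r of log2 CPM ranged from 0.38 to 0.98 (median 0.87) over the 9 *Cryaa* libraries and from 0.74 to 0.96 (median 0.86) over the 9 *Cryab* libraries. The libraries share depth and scaling, and the 2 lowest values were those of *Dct* with *Tyr* and *Tyrp1* in the *Cryaa* line and of *Tyrp1* with *Mlana* and *Dct* in the *Cryab* line. *Ttr* followed *Pmel* in the *Cryab* line (r = 0.89, n = 9) and not in the *Cryaa* line (r = -0.38, n = 9). Of the 13928 other genes kept by filterByExpr, the one most like *Ttr* over the *Cryab* libraries was *Rgr* (r = 0.98), followed by *Fnbp1* (0.97), *Col8a1* (0.97), *B4galt1* (0.94) and *Gimap9* (0.94). Over the *Cryaa* libraries it was *Arid4a* (0.98), followed by *Trak2* (0.95), *Bach1* (0.94), *Tcf4* (0.94) and *Amigo2* (0.94). Among those most like the mean of *Tyr*, *Tyrp1*, *Dct*, *Pmel*, *Mlana* and *Mitf* were *Bend4* (0.98), *Fam129a* (0.98), *Izumo4* (0.97), *Tpp1* (0.97) and *Unc5c* (0.97) in the *Cryaa* line, and *Gm17435* (0.94), *Adamts7* (0.94), *Cmtm8* (0.94) and *Eomes* (0.93) in the *Cryab* line.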

How the data were processed

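RNA was measured in 18 libraries of pooled mouse lenses. Per the labels, poly-A libraries were read as single 50-base reads. The authors aligned the reads with STAR 2.0.4b to GRCm38 and counted them per gene with featureCounts 1.4.5; the deposited counts are whole numbers without normalization, and the strand setting is not given in the sources used here. The deposited tables of CPM, CPM per length and log2 CPM were not used. Of 41422 lines, repeats of an identifier, which had equal counts, were dropped to leave 40800 genes. Genotypes were read from the titles, because for 6 *Cryab* libraries the field for genotype gives the *Cryaa* line.

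Counts of 26547 genes were scaled with TMM and fitted with edgeR 4.0.16 (R 4.3.3) in 1 model of 6 groups with robust quasi-likelihood dispersions; FDR is the Benjamini-Hochberg value over all genes of a contrast. Levels are CPM after TMM, log2 CPM used a prior count of 2, and levels between genes were divided by exon length (GENCODE vM21). Groups were called overlapping or apart on CPM after TMM unless another scaling is named. Genes at or under 3 counts in every library in both groups of a comparison were given no fold. Counting intervals were exact conditional binomial intervals from scipy 1.17.1. DESeq2 1.42.0, a likelihood-ratio test, other scalings, a replicate block and leaving out each library were alternatives. The fitting code was tested on simulated counts. Precision is limited by totals of 14272174 to 29639719 counts per library.

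The 10 genes and all gene lists were chosen with earlier results of these data known. From each list the text could name up to 3 genes past the threshold against *Cryaa*-WT, by size of change, and the 3 with the highest mean CPM in the *Cryab* line, beside all 10 genes, the 5 genes most like them in each line, and the marker genes of each cell type; some of these are not reported here. Replicate numbers are shared between groups without a stated meaning. Deviations from the group means of same-numbered libraries correlated above 0.1 in all 3 pairs for *Cryab*-R120G-homo and *Cryab*-WT alone (r = 0.278, 0.176 and 0.159), a comparison that was not tested here; for *Cryaa*-R49C-homo and *Cryaa*-WT they were 0.045, 0.161 and 0.155.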

Additional observations from a re-analysis of the deposited data

Results flagged for a closer look

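For several transcripts all libraries of a mutant genotype, het or homo, lay on one side of the mean of their WT libraries in one line, and all libraries of the same genotype lay on the other side in the other line. In homo against WT lenses, the mean log2 CPM difference (prior count 2) of *Slc6a13* was -1.64 in the *Cryaa* line and 2.86 in the *Cryab* line, which is 4.50 apart. For *Mlana* it was -2.24 and 1.44, 3.68 apart. For *Pmel* it was -2.14 and 1.51, 3.64 apart. For *Tyr* it was -1.47 in the *Cryaa* line, and in the *Cryab* line, where WT had no count, only a lower bound of 1.56 from 3 counts over the group can be given, so the lines were at least 3.03 apart. For *Dct* it was -0.59 and 1.73, 2.32 apart. In het against WT lenses, *Dct* differed by 2.55, from -0.49 to 2.05, and *Pmel* by 2.33, from -0.42 to 1.91. These differences between the lines were not tested, because the *Cryab* values were part of the choice of the genes. Line and age cannot be told apart.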

How the results depend on the processing

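In *Cryaa*-R49C-homo against *Cryaa*-WT, 5 of the 10 transcripts passed, 2 with library size alone (7.39% of all genes), and between 2 and 6 with 1 library left out. In *Cryaa*-R49C-homo against *Cryaa*-R49C-het, 4 passed, 2 with library size alone (3.78% of all genes), and between 2 and 6 with 1 library left out. In *Cryaa*-R49C-het against *Cryaa*-WT none passed under any of the settings tried. The median log2 fold change of *Cryab*-R120G-het against *Cryab*-WT was 2.25 and ranged from 1.67 to 2.56 with 1 library left out; that of *Cryab*-R120G-homo against *Cryab*-WT was 1.77 (1.68 to 1.94), and that of homo against het was -0.37 (-0.69 to 0.16). The median difference of log2 CPM between *Cryaa*-WT and *Cryab*-WT was 1.84, and 3.03 with library size alone. Over all genes, 17 passed in *Cryaa*-R49C-het against *Cryaa*-WT, with 11 for library size alone, 1 with filterByExpr, 9 by the likelihood-ratio test, 6 with DESeq2 and 7 to 72 with 1 library left out. The count of homo against WT was 1498, with 2678 by the likelihood-ratio test and 982 to 3128 with 1 library left out, and that of homo against het was 1419, with 2844 and 635 to 4120. The cause was not tested.

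With the replicate number as a block, 0, 5 and 4 of the 10 transcripts passed in the 3 *Cryaa* comparisons, as without it, and the *Cryab* medians were 2.09, 1.70 and -0.31; over all genes the block gave 27, 1681 and 1730. The numbers share no stated meaning in the *Cryaa* line, where same-numbered libraries correlated from -0.283 to 0.481. With totals of 14272174 to 29639719 counts, changes in *Rpe65* and *Tyr* in particular were near the limit of detection.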
